A study of Mus musculus with 2 samples.

Results

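The histone genes were followed by 71 probes for 49 genes on 2 two-colour arrays of mouse G1E-ER-GATA-1 cells. They were taken by their names on the array, which are older symbols beginning with Hist1h to Hist4h, H1f, H2af or H3f. Of these probes, 60 for 43 genes were well above background in the same channel on both arrays, out of 24430 such probes among the 41174 probes of the array. Genes named Hist are called replicative here and gave 42 probes for 32 genes, and genes named H1f, H2af or H3f are called variants and gave 18 probes for 11 genes. Of the remaining 11 histone probes, 4 were well above background on 1 array and 7 on neither. H1f0, Hist1h1t, H2afy2, Hist1h2ac, Hist1h2be and Hist3h2ba had no probe left, so these 6 genes have no value.

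G1E-ER-GATA-1 is an erythroid line without its own GATA-1, the transcription factor that drives red cell maturation, and it carries a GATA-1 protein joined to the hormone-binding part of the oestrogen receptor. All cells on the arrays therefore shared the GATA-1-null background and the inducible GATA-1 transgene. One group was transfected with an siRNA for ETO2, a corepressor that is the product of Cbfa2t3, and the other with control siRNA, and both then received β-estradiol for 24 h to start maturation. Control RNA was labelled with Cy5 (red) and ETO2 siRNA RNA with Cy3 (green) on both arrays, from 1.2 µg of total RNA for each dye, and dyes were not swapped, so any dye bias of a probe enters both ratios alike. The arrays are numbered as replicates, but no label says whether the cultures were separate, so the p-values reflect the spread of this array pair, which may be technical. The line is the only one used, and the labels do not say whether it is 1 clone.

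DNA is wrapped around nucleosome cores of H2A, H2B, H3 and H4, and the linker histone H1 binds where the DNA enters and leaves. Replicative histone genes lie in clusters of near-identical copies and are used during S phase. Their mRNAs end in a conserved stem-loop and usually carry no poly(A) tail. Variant histones are made outside S phase too, mostly from ordinary polyadenylated mRNAs, and replace the replicative forms at chosen places. In maturing erythroid cells the nucleus condenses before it is expelled. The comparison asked which transcripts depend on ETO2 once GATA-1 is active.

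Every log2 ratio is ETO2 siRNA over control siRNA, and each mean is given with the SD over the 2 arrays. A probe was called higher or lower where the adjusted p of limma's two-sided test, over all 24430 probes, was under 0.05. Cbfa2t3 itself fell on both arrays, with log2 ratios of -0.39 and -0.46 and a mean of -0.42 ± 0.05 (adjusted p = 1.0e-04), which is 74.6% of the control level. A second probe of the gene read -0.23 ± 0.0046, or 85.6% of the control level (adjusted p = 0.011). With the scanner's processed signals both calls were lost, at -0.37 (limma adjusted p = 0.051) and -0.14 (adjusted p = 0.27). Of the markers, all 8 erythroid genes with a probe were read above background and rose, by log2 ratios of 0.25 to 2.88, so erythroid transcripts moved with the histone changes described here and their part in them was not tested. Hba-a1 among them was saturated in both channels on both arrays and has no fold, while the 7 unsaturated ones were all called higher. The markers were read only under the reported processing. The labels also call the cells murine ES cells. Of 8 embryonic stem cell markers, 5 were not well above background, namely Pou5f1, Nanog, Sox2, Zfp42 and Klf4. The other 3 were kept and not called. Their control signals as scanned were 301 and 327 (Dppa5a), 113 and 158 (Tdgf1), and 111 on each array (Esrrb). Of the lists for other cells, 3 of 4 kept lymphocyte markers were lower (-0.27 to -0.06 over the list), 2 of 4 megakaryocyte markers were higher (-0.10 to 1.19), 1 of 4 mast cell and granulocyte markers was lower (-0.61 to 0.16), and none of 2 macrophage markers and 1 fibroblast marker was called. In bulk RNA such as this, fewer cells of a type and less RNA per cell cannot be told apart.

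After ETO2 siRNA the histone classes did not move as a block. H2B and H4 probes were lower or not called, and the linker histones split. H2A probes were more often higher than lower, except with median centring of each array, where 3 were higher and 8 lower. Of the 60 probes, 34 were called in either direction, beside 39.4% of all kept probes. The higher calls were 16 of 60 (26.7%) against 18.8% of all kept probes, and the lower calls 18 of 60 (30.0%) against 20.7% of all kept probes. The median over the 42 replicative probes was -0.06 (0.06 on array 1 and -0.17 on array 2), and over the 18 variant probes it was 0.07 (0.07 and 0.09), beside -0.01 over all kept probes.

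Saturation matters for these very abundant transcripts. In 15 histone probes the red channel was at the scanner's ceiling on both arrays, and a capped control signal makes the ratio read too high. Without probes saturated anywhere, 45 histone probes remained, of which 7 (15.6%) were higher and 17 (37.8%) lower, against 17.8% and 20.8% of the 23990 unsaturated probes (38.7% in either direction). Probes saturated on both arrays are therefore described by their ratios and given no fold, or only a bound.

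**Figure D1:**
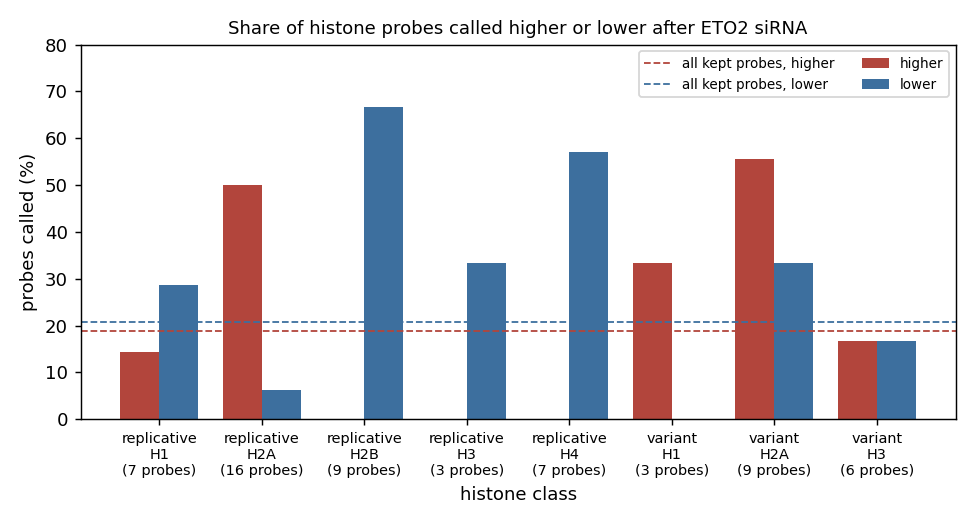
Share of kept probes called higher (red bars) or lower (blue bars) after ETO2 siRNA in each histone class, in percent, with the shares over all 24430 kept probes as dashed lines (18.8% higher and 20.7% lower). H2B (66.7%) and H4 (57.1%) have the highest shares of lower probes and no higher probe, while 8 of 16 H2A probes are higher and 6 of the 16 are saturated in red. When arrays are only centred on their medians, the H2A median turns negative (-0.17, against -0.29 for all probes).

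The linker histones held both the deepest fall and a rise. Hist1h1c, which encodes the somatic linker histone H1.2, had control signals of 4593 and 5960.1 and ETO2 siRNA signals of 1051 and 1597 on arrays 1 and 2, before background correction. Its log2 ratios were -1.34 and -0.96, a mean of -1.15 ± 0.27, which is 2.22-fold lower (adjusted p = 4.0e-08). Both arrays lay far below 0, and no other kept histone probe fell as much. Hist1h1b, encoding H1.5, went the other way, with 0.57 and 0.16 and a mean of 0.36 ± 0.29, or 1.29-fold higher (adjusted p = 0.0024). The rise was uneven between the arrays, and with median centring the ratio was -0.11 where the median of all probes was -0.29. With the processed signals it read 0.38 and was not called (adjusted p = 0.11).

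Hist1h1d, encoding H1.3, gave different readings from its probes. One probe read -0.30 and -0.39 and was called lower. Its ETO2 siRNA signal was not well above background on either array, so the fold is a bound, at least 1.26-fold lower. The other Hist1h1d probe read 0.10 and -0.21 and was not called. Hist1h1e, encoding H1.4, read 0.05 ± 0.13 with its dimmer probe and -0.12 ± 0.27 with its brighter probe, neither called. Hist1h1a, encoding H1.1, read 0.15 and -0.24. Over the 7 linker probes of the replicative genes the median was -0.06, and 4 had opposite signs on the arrays.

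The H2A class had 16 probes for 10 genes, of which 8 were called higher and 1 lower, and its median was 0.16 (0.18 and 0.09). No probe of this class changed sign between the arrays, and 12 of 16 were above 0 on both. Without the 6 saturated probes, 3 of 10 were higher and 1 lower, with a median of 0.11. With median centring the class median was -0.17, which is 0.12 above the median of all probes. Hist2h2aa1 read 0.41 on each array, 1.33-fold higher with an SD of 0.003 (adjusted p = 1.2e-04). Hist1h2ai, chosen for this text after its values were seen, read 0.39 and 0.36, 1.30-fold higher (adjusted p = 2.7e-04). Hist1h2ak, likewise chosen afterwards, read 0.16 and 0.22, 1.14-fold higher (adjusted p = 0.027). None of these 3 unsaturated rises passed the threshold with the scanner's processed signals, where Hist2h2aa1 read 0.24.

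The 4 highest H2A ratios all came from saturated probes. Hist1h2aa, a gene known from testis, read 0.94 and 1.15 with both channels at the ceiling. Hist2h2ac read 0.86 and 0.79 with one probe, and 0.94 and 1.02 with another that overlaps the first by a run of 51 bases. Hist1h2af read 0.93 and 0.92 with one probe and 0.35 and 0.09 with another. These sizes cannot be taken as folds, because the control signal had reached the ceiling.

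Several H2A probes have long stretches in common and may not tell the genes apart. The array's 60-base sequences are shown for those that share the longest exact runs, with the shared run in capitals. The first pair is Hist1h2aa and Hist1h2af, alike over 44 bases, beside a probe named for the variant gene H2afj that has 29 of these bases (capitals there mark the run shared with Hist1h2aa). The second pair is Hist1h2ak and the other Hist1h2af probe, alike over 40 bases.
Hist1h2aa: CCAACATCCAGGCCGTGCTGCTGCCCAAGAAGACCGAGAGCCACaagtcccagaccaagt
Hist1h2af: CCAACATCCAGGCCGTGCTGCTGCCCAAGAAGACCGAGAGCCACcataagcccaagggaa
H2afj: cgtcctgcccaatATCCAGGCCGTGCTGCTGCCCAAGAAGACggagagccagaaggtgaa
Hist1h2ak: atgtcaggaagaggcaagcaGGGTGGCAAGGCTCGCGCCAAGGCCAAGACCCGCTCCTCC
Hist1h2af, other probe: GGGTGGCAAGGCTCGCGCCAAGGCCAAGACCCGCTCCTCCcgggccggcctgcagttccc
Of the 5 H2A probes with an exact run of at least 20 bases in a probe of another histone gene, all 5 were called higher and 3 were saturated in red. Of the 11 H2A probes that share no such run, 3 were higher (Hist2h2aa1 and the saturated pair of Hist2h2ac) and 1 lower, with a median of 0.12. Transcripts of these copies may have bound the same spots, and the values are uncertain for any single gene among them.

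Other H2A genes lay on both sides of 0, with probe means of -0.22 to 0.13. Hist3h2a had 4 probes, with means of 0.13, -0.06, -0.13 and -0.22. The last, read by -0.05 and -0.40, was the only H2A probe called lower (1.17-fold, adjusted p = 0.031), and the first was saturated in red. Hist2h2aa2 read 0.11 and 0.12 with its probes, and Hist1h2ae 0.13 ± 0.06. Hist1h2ab read 0.00 on array 1 against -0.43 on array 2, a mean of -0.21 (limma adjusted p = 0.053). None of these passed the test.

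H2B was the most uniform class. Of its 9 probes for 8 genes, 6 were called lower and none higher, none was saturated, and 8 of 9 were below 0 on both arrays. Its median was -0.30 (-0.25 and -0.34). It lay between -0.26 and -0.47 relative to all probes under every processing of both arrays together. Hist1h2bk had control signals of 2273 and 2459 and ETO2 siRNA signals of 995 and 865. Its log2 ratios were -0.43 and -0.62, a mean of -0.53 ± 0.14, or 1.44-fold lower (adjusted p = 2.4e-05). A second Hist1h2bk probe read -0.25 and -0.38, 1.25-fold lower (adjusted p = 0.0013), so both probes of the gene fell. Hist1h2bc read -0.41 and -0.37, 1.31-fold lower (adjusted p = 2.0e-04). Hist2h2bb read -0.36 and -0.41, also 1.31-fold lower (adjusted p = 2.1e-04), on a dim probe with control signals of 180.2 and 176. All 4 of these probes were below 0 on both arrays. The naming rule took only calls of the same sign on both arrays, so this agreement follows largely from the choice.

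Hist1h2bm read -0.21 and -0.33, 1.21-fold lower (adjusted p = 0.0036), and Hist3h2bb read -0.26 and -0.34, 1.23-fold lower (adjusted p = 0.0016). RefSeq now lists Hist3h2bb as H2bu1-ps, a pseudogene name. These readings and that of the second Hist1h2bk probe are not independent, since the probes are nearly the same sequence. They are shown because 3 of the 6 lower calls in the class come from them. Capitals mark the 52-base run of the first pair, and in Hist3h2bb the 26 bases it has in common with Hist1h2bm.
Hist1h2bk: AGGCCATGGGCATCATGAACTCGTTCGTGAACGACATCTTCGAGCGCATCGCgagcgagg
Hist1h2bm: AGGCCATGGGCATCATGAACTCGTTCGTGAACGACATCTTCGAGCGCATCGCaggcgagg
Hist3h2bb: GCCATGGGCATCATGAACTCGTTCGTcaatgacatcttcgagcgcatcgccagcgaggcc
The probes of Hist1h2bc, Hist2h2bb and the first of Hist1h2bk share no run of 20 bases with another histone gene, and all 3 were lower. The other 3 H2B probes were not called, Hist1h2bp at -0.14 ± 0.03, Hist1h2ba, a gene known from testis, at -0.10 ± 0.12, and Hist2h2be at 0.10 ± 0.01. With the processed signals 2 of the 9 H2B probes were called lower, when lower calls over all probes also dropped to 5.52%.

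H4 probes differed between the arrays in size, and 3 of 7 in sign. Of 7 probes for 6 genes, 4 were called lower and none higher, with a median of -0.24 that was -0.06 on array 1 and -0.30 on array 2. The median SD of these probes was 0.26, and that of the replicative H1 probes 0.27, against 0.06 over all kept probes. With 2 arrays, limma's p-values rest mostly on the spread shared over all probes of this array pair. For H4 and H1 they therefore do not measure the probes' own, larger spread. Hist2h4 read -0.24 and -0.61, a mean of -0.42 ± 0.26, or 1.34-fold lower (adjusted p = 5.5e-04). Hist1h4a read -0.06 and -0.45, 1.19-fold lower (adjusted p = 0.019). Hist1h4i read -0.19 and -0.30, 1.18-fold lower (adjusted p = 0.0074). One Hist1h4d probe read -0.12 and -0.50, 1.24-fold lower (adjusted p = 0.0066), and the other 0.10 and -0.26, not called. Hist1h4f, the brightest H4 probe, read 0.28 and -0.12, and Hist4h4 read 0.13 and -0.20, so both changed sign between the arrays. None of the H4 calls held with the processed signals, where the class median was -0.12, and 1 held with an offset of 0.

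H4 proteins are the same for all these genes, and their coding sequences are close. The H4 probes with the longest common runs are shown because they bear on how far the gene names can be trusted. Capitals mark the 50 bases that the Hist1h4d and Hist1h4f probes share, and the 29 bases of the Hist2h4 probe that are also in the Hist1h4d probe.
Hist1h4d: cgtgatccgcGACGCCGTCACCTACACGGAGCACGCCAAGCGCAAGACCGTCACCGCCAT
Hist1h4f: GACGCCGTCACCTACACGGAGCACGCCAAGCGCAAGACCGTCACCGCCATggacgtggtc
Hist2h4: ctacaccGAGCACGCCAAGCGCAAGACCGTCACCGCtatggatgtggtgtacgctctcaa
The first pair read alike on each array (0.10 and -0.26 against 0.28 and -0.12, neither called), while Hist2h4 was lower on both. In all, 5 of the 7 H4 probes share a run of at least 20 bases with a probe of another H4 gene.

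H3 had only 3 kept probes among the replicative genes. Hist1h3d read -0.22 and -0.36, a mean of -0.29 ± 0.09, or 1.22-fold lower (adjusted p = 0.0025). With the processed signals it read -0.16 and was not called (adjusted p = 0.25). Hist1h3a read 0.13 and -0.13. Hist2h3c1 was saturated in red and read 0.05 ± 0.02. Neither of the last was called.

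**Figure D2:**
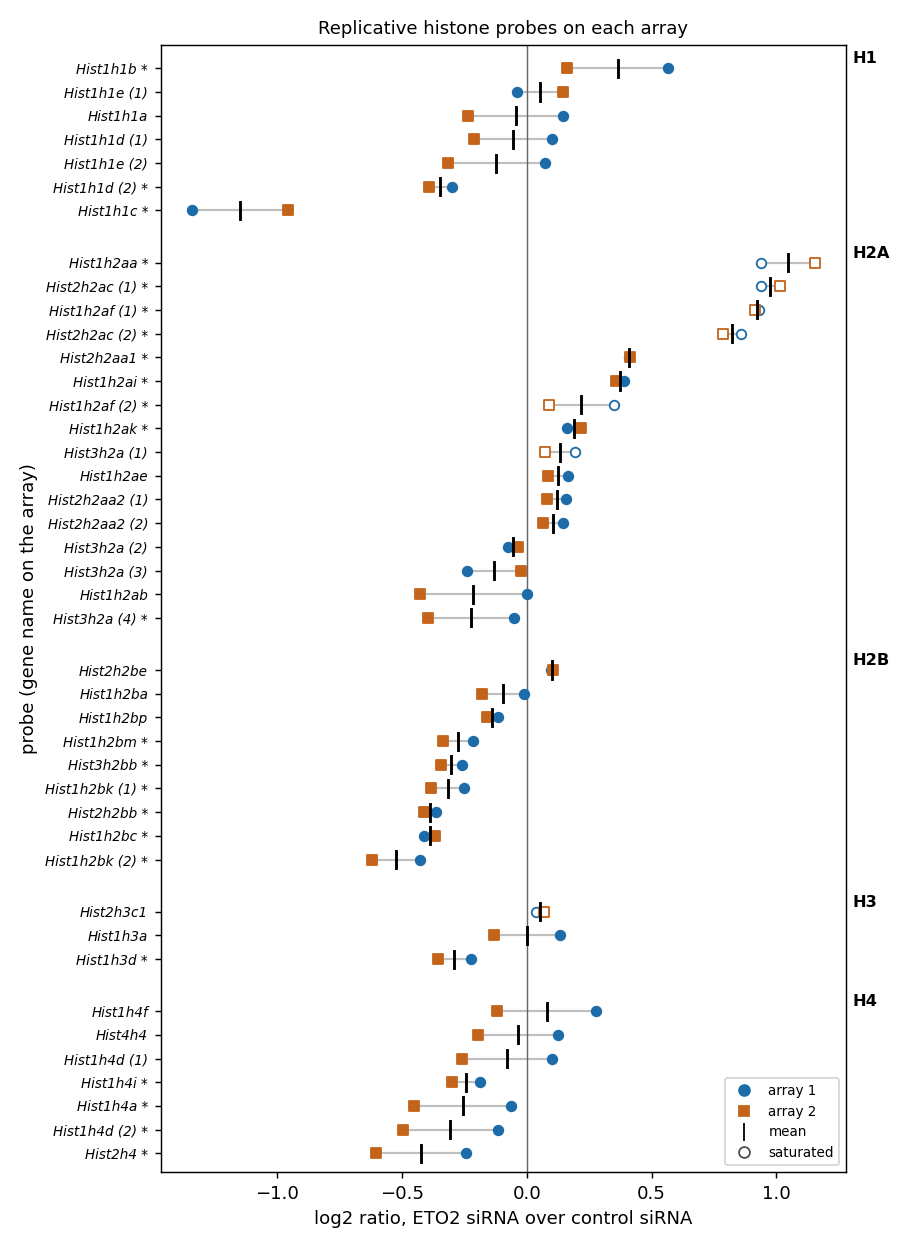
Log2 ratio of ETO2 siRNA over control siRNA for each of the 42 kept replicative probes, by class. Circles are array 1, squares array 2, bars the mean of both, open symbols probes saturated on at least 1 array, asterisks probes called by limma, and numbers in brackets tell probes of a gene apart. Hist1h1c lies farthest to the left (-1.34 and -0.96), 8 of 9 H2B probes lie left of 0 on both arrays, the highest H2A probes are all saturated, and centring on the median alone brings the H2A median to -0.17 (all probes -0.29).

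The difference between the arrays (array 2 minus array 1) varied between the replicative classes, and also within H1 (-0.40 to 0.39) and H2A (-0.43 to 0.22). In H2A, 3 of 16 probes were beyond -0.2. All 7 H4 probes read lower on array 2 than on array 1, with a median difference of -0.36 and a range of -0.39 to -0.11. In 6 of 7 the difference was beyond -0.2, as it was in 14 of 42 replicative probes (33.3%) against 1534 of 24430 kept probes (6.28%). The H1 probes of the replicative genes had a median difference of -0.31, H3 of -0.13, H2B of -0.08 and H2A of -0.05, and the median over all kept probes was -0.001. Hist1h1c was an exception and read higher on array 2, by 0.39. Among the variants only H1fx was beyond -0.2 (-0.33). S phase genes did not share the shift, with 1 of 38 beyond -0.2 and a median of -0.02. Part of the replicative signal thus varied between the arrays in a way that the groups do not explain, and its source was not tested.

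**Figure D3:**
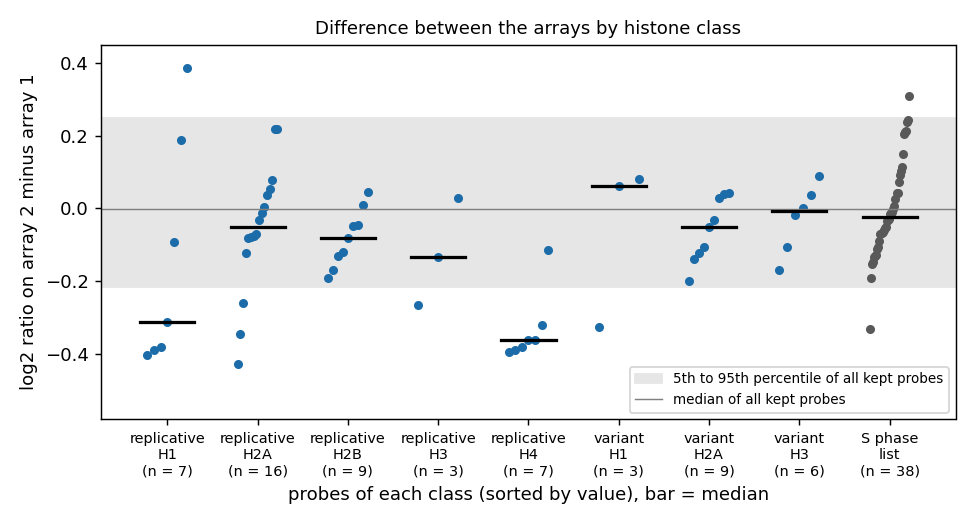
Difference in log2 ratio between the arrays (array 2 minus array 1) for the kept probes of each histone class and for the S phase list. Bars are medians, and the grey band holds the 5th to 95th percentile of all 24430 kept probes (-0.22 to 0.25). All but 1 of the 7 H4 points lie below the band.

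Labelling used a T7 promoter primer, per the labels, and the sources used here do not say how that primer anneals. For mRNAs without a poly(A) tail this bears on what was copied. The letters of the histone stem-loop (its first or its last part, on the transcript's strand) were therefore looked for in all probes. They were in 3 of 41174 probes (0.00729%), and all 3 are histone probes. Stretches of 28 bases are shown with the stem-loop letters in capitals.
Hist1h2ab: aagttaaccaaaacaaaGGCTCTTTTCA
Hist1h3a: gaattaaccaaaGGCTCTTTTCAGAGCC
Hist1h2ae: CTTTTCAGAGCCattcacttaattcagt
The Hist1h2ae probe starts inside the stem-loop, and most of its bases lie past it, where the usual transcript has ended. It read 0.17 and 0.09. The Hist1h2ab and Hist1h3a probes end at or near the stem-loop and read 0.00 and -0.43, and 0.13 and -0.13. None of the 3 was called. Whether the other replicative signals came from tailed or untailed transcripts was not tested.

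H2afx, whose product H2A.X is phosphorylated at DNA breaks, had control signals of 23830.2 and 27634 and ETO2 siRNA signals of 19199.7 and 17608. After background correction and loess its log2 ratios were 0.58 and 0.44, a mean of 0.51 ± 0.10, or 1.42-fold higher (adjusted p = 2.5e-05). It was the largest unsaturated rise among the 60 probes, although with median centring it read -0.10 where all probes had a median of -0.29, and with the processed signals it read 0.38 and was not called (adjusted p = 0.052). H2afz and H2afv encode the H2A.Z proteins, found at promoters and regulatory regions. H2afz read 0.78 and 0.82 and H2afv 0.32 and 0.20, both called higher and both saturated in red, so neither has a fold. The macroH2A gene H2afy, whose product carries a large additional domain and is linked to silent chromatin, had 3 probes. They read -0.41 and -0.47 (1.36-fold lower, adjusted p = 6.9e-05), -0.18 and -0.28 (1.17-fold lower, adjusted p = 0.010), and 0.17 and 0.19 on a dim probe (1.13-fold higher, adjusted p = 0.035). Its probes thus disagree, the brighter pair being lower and the dim one higher. H2afy3, which RefSeq lists as Macroh2a3, read 0.15 ± 0.02 and was not called.

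H2afj, encoding H2A.J, gave opposite calls. One probe read -0.56 and -0.52, a mean of -0.54 ± 0.03, or 1.46-fold lower (adjusted p = 9.1e-06), with control signals of 1282 and 1222. The other read 0.79 and 0.59 with the red channel saturated. The latter is the probe shown above, which has 29 bases in common with the Hist1h2aa and Hist1h2af probes that were also saturated and high. The former shares no run of 20 bases with any other histone gene. Over all 12 histone genes with more than 1 kept probe, the calls differed between probes in 7, and H2afj and H2afy were the 2 with both a higher and a lower probe. The same count was not made over all genes of the array, so it cannot be read as particular to histone genes.

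H3f3a and H3f3b both encode H3.3, which is deposited in active genes throughout the cell cycle. Of their 6 probes, 5 were saturated in red, so their ratios come from a capped signal. Their median was 0.04, but 0.29 with the processed signals and -0.30 relative to all probes with median centring. The H3f3a probes read 0.03 ± 0.06, -0.13 ± 0.12 and -0.18 ± 0.01, all saturated in red, and only the last was called lower, by at least 1.13-fold (adjusted p = 0.038). The H3f3b probes read 0.04 ± 0.03 without saturation and 0.10 and 0.24 with it, and only the last was called. Of the linker variants, H1foo, known from oocytes, read 0.23 and 0.29, a mean of 0.26 ± 0.04, or 1.19-fold higher (adjusted p = 0.0049), and 0.12 with the processed signals, not called. H1fx read 0.05 and -0.28, and H1fnt, known from spermatids, 0.02 ± 0.06. The 3 probes for H1f0, the linker histone of differentiated cells, were not well above background on both arrays in either channel, so its level could not be compared.

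**Figure D4:**
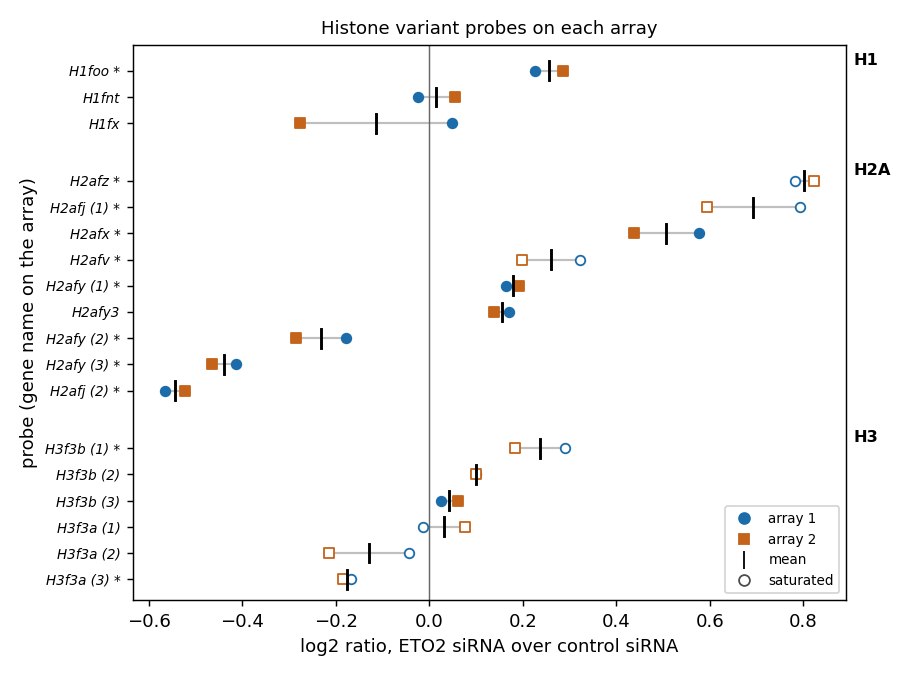
Log2 ratio of ETO2 siRNA over control siRNA for each of the 18 kept variant probes, drawn as for the replicative probes (circles array 1, squares array 2, bars the mean, open symbols saturated, asterisks called by limma). H2afj and H2afy have probes on both sides of 0, and 5 of the 6 H3.3 probes are saturated. When arrays are only centred on their medians, H2afx reads -0.10 and the variant median -0.41 (all probes -0.29).

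Genes that serve histones were read from a list of 48, each by its brightest kept probe only, and 46 had such a probe. Of these, 15 (32.6%) were higher and 12 (26.1%) lower, with a median of 0.05, against 18.8% and 20.7% of all kept probes. Among 22 chaperones and importers, 10 were higher and 6 lower. Chaf1b and Chaf1a encode subunits of CAF-1, the chaperone that deposits H3 and H4 behind the replication fork. Chaf1b rose by 0.62 and 0.66 (1.56-fold) and Chaf1a by 0.50 and 0.43 (1.38-fold). Asf1b, which hands H3 and H4 to CAF-1, rose by 0.54 and 0.53 (1.45-fold). Npm1, a nucleolar histone chaperone, read 0.87 ± 0.15 with the red channel saturated and has no fold. Ssrp1, a subunit of the FACT chaperone, fell by 0.41 on the log2 scale and was saturated in red on 1 array, and the importer Ipo4 read -0.34 and -0.31 (1.25-fold lower).

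Among 15 factors of histone mRNA transcription and processing, 3 were higher and 4 lower (26.7%), against 18.8% higher and 20.7% lower over all kept probes. Lsm10, part of the U7 snRNP that cleaves histone pre-mRNA, read -0.44 and -0.59 (1.43-fold lower), and Cpsf3, the cleavage enzyme, -0.25 and -0.30 (1.21-fold lower). Slbp, which binds the stem-loop, read 0.07 and -0.05, and Npat, the coactivator of replicative histone genes, 0.06 and -0.01, neither called. Slbp and Npat were chosen for this text after their values were seen. Among 8 genes that place or read variants, Srcap, which inserts H2A.Z, read 0.42 and 0.37 (1.31-fold higher), and Yeats4, a subunit of such remodellers, -0.42 and -0.41 (1.33-fold lower).

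S phase genes were set beside the histones because replicative histone mRNA is made in that phase. Of 38, 16 (42.1%) were higher and 4 (10.5%) lower, with a median of 0.11, against 18.8% higher, 20.7% lower and a median of -0.01 over all kept probes. Without saturated probes, 13 of 33 (39.4%) were higher and 4 (12.1%) lower, with a median of 0.09. The shares over all unsaturated probes were 17.8% and 20.8%. This list and that of genes that serve histones were read only under the reported processing, so their dependence on it was not tested. Gins2, part of the replicative helicase, read 0.66 and 0.56 (1.53-fold higher), and Ccne1, cyclin E1, 0.59 and 0.45 (1.43-fold higher). E2f8 read 0.38 and 0.58 (1.40-fold higher), and the helicase subunit Mcm6 0.73 ± 0.05 with a saturated red channel. E2f2 read -0.35 and -0.68 (1.43-fold lower), the cyclin gene Ccna2 -0.36 and -0.32 (1.26-fold lower), Ccne2 -0.45 and -0.21 (1.26-fold lower), and E2f1 -0.22 and -0.24 (1.17-fold lower). Under the reported processing S phase genes thus had a positive median while H2B (-0.30) and H4 (-0.24) had negative ones. Whether the share of cells in S phase differed between the groups was not tested.

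Promoter sequences were taken from RefSeq (GRCm38.p6) for 42 of the 49 histone genes, as the 250 bases before the first listed start. The motifs searched on both strands were the TATA box as TATAAA and the CCAAT box by those letters. The octamer bound by Oct factors was searched as ATTTGCAT and the GATA motif as AGATAA, and none of these contains another. CCAAT was in 27 of 31 replicative promoters against 33.8% of all promoters in the table, and TATAAA in 17 of 31 against 12.4%. The octamer was in 6 of 11 H2A and 4 of 7 H2B promoters, in none of the 6 H1 or 5 H4 promoters, and in 1.60% of all promoters. AGATAA was in 6 of 31 replicative and none of 11 variant promoters, against 9.99% of all. A match is a description of these letters and not evidence of binding. The promoters of Hist1h1c, the deepest fall, and of Hist1h2bk and Hist1h2bm, lower H2B genes, are shown 5′ to 3′ on the gene's strand with matches in capitals.
Hist1h1c, chr13:23738557-23738806, plus strand: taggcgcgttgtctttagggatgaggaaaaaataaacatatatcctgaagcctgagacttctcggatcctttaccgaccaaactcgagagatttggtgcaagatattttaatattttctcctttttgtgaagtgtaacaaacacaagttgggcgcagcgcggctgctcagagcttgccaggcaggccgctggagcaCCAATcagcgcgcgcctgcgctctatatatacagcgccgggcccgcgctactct
Hist1h2bk, chr13:22035571-22035820, plus strand: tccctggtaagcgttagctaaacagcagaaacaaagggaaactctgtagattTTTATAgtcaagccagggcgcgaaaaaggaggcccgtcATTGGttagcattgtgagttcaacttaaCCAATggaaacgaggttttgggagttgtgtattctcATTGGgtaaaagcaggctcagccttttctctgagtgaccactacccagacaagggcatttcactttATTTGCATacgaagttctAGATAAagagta
Hist1h2bm, chr13:21721794-21722043, plus strand: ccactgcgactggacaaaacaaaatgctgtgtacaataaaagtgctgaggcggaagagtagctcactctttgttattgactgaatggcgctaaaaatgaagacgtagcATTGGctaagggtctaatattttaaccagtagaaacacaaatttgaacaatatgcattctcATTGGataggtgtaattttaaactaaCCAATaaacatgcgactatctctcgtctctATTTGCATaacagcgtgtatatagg
The Hist1h1c stretch holds a single CCAAT. Both H2B stretches hold the octamer close to the start, with CCAAT in either orientation farther out, and Hist1h2bk also has AGATAA next to its start.

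The order of the classes was compared under each way of processing both arrays together. Relative to the median of all probes tested, H2A stayed above 0 (0.12 to 0.30) and H2B (-0.47 to -0.26) and H4 (-0.37 to -0.12) below it in all of them. The 0.30 of H2A came with the processed signals, the deposited log ratio and the brightest probe per gene, which kept saturated probes. With saturated probes left out H2A lay at 0.13. Leaving them out was not combined with another normalization, so the place of the unsaturated H2A probes under the others was not tested. The distance from the whole differed between single arrays. The H4 median was -0.06 on array 1 and -0.30 on array 2, and the H2A median 0.18 and 0.09. All kept probes had -0.01 on array 1 and -0.02 on array 2. Median centring in place of loess moved the median of all probes to -0.29 and turned the split of calls from 16 higher and 18 lower to 3 higher and 43 lower, so the directions given here are relative to the whole array.

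**Figure D5:**
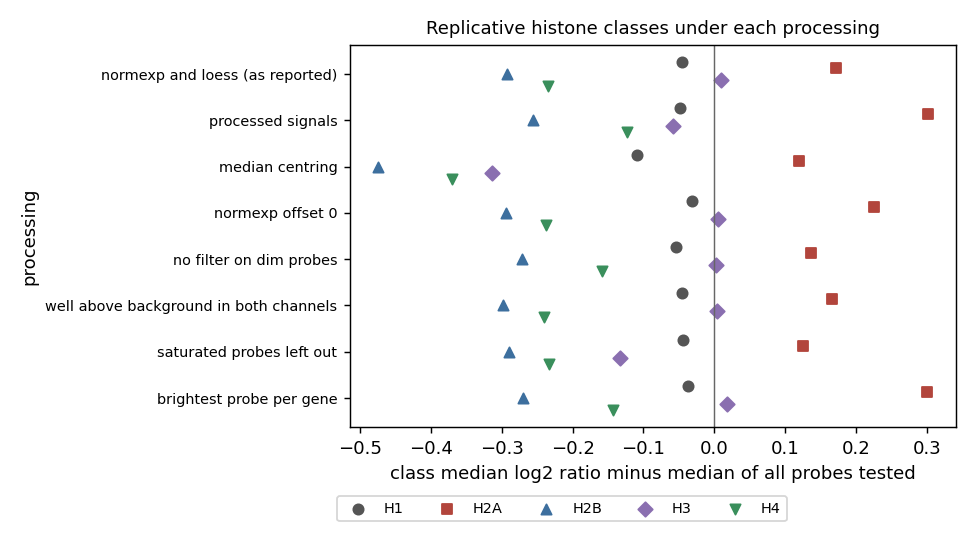
Median log2 ratio of each replicative class minus the median of all probes tested, under the reported processing and 7 alternatives. H2B (triangles up) and H4 (triangles down) lie left of 0 and H2A (squares) right of 0 in each, while H1 lies left of it by 0.03 to 0.11 and H3, with 2 or 3 probes, lies on both sides. Before subtraction the H2A median is negative with median centring (-0.17). Saturated H2A probes are all left out only in the setting of that name.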

How the data were processed

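The scanner software was Feature Extraction 9.1.3.1 by Agilent, set to a local background, and the deposited spot intensity and background values are linear and not normalized, per the file headers. Its processed intensity, with background subtracted and dyes normalized, gave the log10 of red over green that was deposited beside it, per the file headers. The authors' deposited table holds these log10 ratios to within 0.0041.

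Mean signals were corrected with limma 3.58.1 (R 4.3.3) by normexp with an offset of 50 and then normalized by loess within each array. Control features (1639) had weight 0, and 10 and 4 outlier spots were left out. Spots of a probe were averaged. Kept probes (24430) were tested with lmFit and eBayes against 0 with Benjamini-Hochberg adjustment at 0.05. With 1 residual degree of freedom, calls rest on the shared variance (14.4 prior degrees of freedom, prior SD 0.0926), and a sign permutation of 2 arrays cannot go below a two-sided p of 0.5. Slide and scan day were the same for both arrays. Array number limits the precision.

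A bound sets the brighter normalized channel mean over the dimmer, which is held at no less than the dimmest signal that was well above background. Dye bias can enter it. The histone genes and the gene lists were chosen with earlier results of these data known. Named were Cbfa2t3 and every kept variant gene. For each replicative class, up to 4 rises and up to 4 falls were named by size, plus the brightest probe. The rises and falls were calls with the same sign on both arrays. Of each list, up to 5 rises and 5 falls were named. One S phase gene that met this rule is not reported here. Other members were named after their values were seen, so that each is accounted for. Symbols were updated through RefSeq (GRCm38.p6), 56 histone probes by accession and 15 by synonym. For the supply and S phase lists the brightest kept probe stands for a gene. The steps were tested on simulated arrays. Alternatives were the processed signals, the deposited log ratio, median centring, an offset of 0, other filters on dim or saturated probes, 1 probe per gene, and each array alone.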

Additional observations from a re-analysis of the deposited data

How the results depend on the processing

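Among the counts, 16 higher histone probes became 3 with median centring and 7 with saturated probes left out. The 18 lower probes became 6 with the processed signals and 6 with the deposited log ratio, 43 with median centring and 11 with the brightest probe per gene, where 43 probes were tested. The processed signals kept 10 of the 16 higher and 6 of the 18 lower calls with none in the opposite direction, and an offset of 0 kept 12 and 12. Without saturated probes 45 probes remained. The replicative median of -0.06 became -0.49 with median centring (-0.21 relative to all probes), and each array alone gave -0.17 to 0.06. The variant median of 0.07 became 0.29 with the processed signals and 0.29 with the deposited log ratio, -0.41 with median centring (-0.12 relative to all probes), 0.059 with an offset of 0, 0.045 with no filter on dim probes, 0.029 without saturated probes and 0.24 with the brightest probe per gene, and each array alone gave 0.074 to 0.088. For these medians and for the processed signals the cause was not tested.

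The naming rule took only replicative calls with the same sign on both arrays, so each array alone could not reverse these. Among named probes that were called, the sign changed only with median centring, where the median of all probes was -0.29, and some uncalled ones turned there with a call. There H1foo read -0.032, H2afv -0.40, H2afx -0.10, Hist1h1b -0.11, Hist2h2aa1 -0.052, Hist1h4f -0.52 and Hist2h3c1 -0.60. The H3f3a probe with the highest ratio read -0.62, the H3f3b probes -0.55, -0.33 and -0.42, the lower of the Hist1h2af probes -0.44, and the saturated Hist3h2a probe -0.52. Uncalled probes of H1fnt, H1fx, H3f3a, Hist1h1e and Hist1h4f also changed sign under other alternatives. So did uncalled probes of Hist1h1d and Hist1h4d when array 1 was read alone. Both groups are measured on the same array, so each ratio already pairs them, and the test of the ratios against 0 is a paired analysis.

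Limits lie mostly in the arrays. With 2 arrays, 1 dye orientation and 15 saturated histone probes, small ratios and the sizes of the brightest H2A, H2A.Z and H3.3 signals are the least certain. Near-identical copies share probe sequence, and dim probes near background understate their ratios through the offset.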

Other observations

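Some genes that place histone variants were outside the naming rule and were chosen after their values were seen. For each gene only the brightest kept probe was read, of 2 for Atrx and Cenpa, 3 for Hira and 6 for Hjurp, and the others were not compared. Daxx and Nasp had 1 kept probe each. Atrx and Daxx form a complex that deposits H3.3 at repeats, and the probes read for them moved apart. Atrx read 0.17 and 0.35 (1.20-fold higher, adjusted p = 0.0064) and Daxx -0.17 and -0.34 (1.19-fold lower, adjusted p = 0.0074). Hira, which serves H3.3 in active genes, read 0.12 ± 0.03 and was not called. Hjurp, the chaperone of the centromeric H3 variant, read 0.27 and 0.38 (1.25-fold higher, adjusted p = 0.0010), while Cenpa, that variant itself, read 0.08 and -0.10 and was not called. Nasp, which holds free H3 and H4, read 0.42 and 0.32 (1.29-fold higher, adjusted p = 4.0e-04). The adjusted p-values are from limma over all kept probes.

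By gene cluster, the Hist1 genes had 27 kept probes, of which 6 were higher and 10 lower, with a median of -0.10. The Hist2 genes had 9, of which 3 were higher and 2 lower, with a median of 0.11. The Hist3 genes had 5, with none higher and 2 lower. Over all kept probes, 18.8% were higher and 20.7% lower. Without saturated probes the Hist1 median was -0.13 over 24 probes and the Hist2 median 0.10 over 6. The clusters hold different mixtures of the classes, and no difference between them was tested.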
